A study of Mus musculus with 49 samples.

Results

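Synovial fluid cells, those found in the joint space, were compared with whole mouse ankle at day 7 after the first injection of K/BxN serum. All 4 fluid arrays and all 4 ankle arrays that the labels place at day 7 were used, 8 of the 49 arrays in the series, which also holds other days and blood leukocytes. Both groups came from male B6 mice of 6 weeks that had received K/BxN serum. The groups thus differ in sampled material and in its preparation, described below, and not in serum treatment. Ankle was taken whole, so its arrays could hold RNA of any tissue of the ankle and of fluid cells left in the joint. The 4 ankle arrays at day 0, before serum, served to find the transcripts that were raised in ankle at day 7.

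The preparation of the RNA differed between the groups. For ankle, the sample descriptions name an extraction with SDS and urea and 2 rounds of in vitro transcription, although the extraction field of every sample names Trizol. Fluid cells were extracted with Trizol. Fluid replicate 1 was washed out of dissected ankles, replicates 2 and 3 were collected during the dissection, and all these were amplified with the MessageAmp and Enzo kits. Fluid replicate 4 is the one fluid array of day 7 for which 2 rounds of in vitro transcription are described, as for ankle. For most fluid arrays, material and preparation cannot be told apart. The labels do not say whether replicates came from separate mice. The p-values therefore reflect only how arrays of the same material and day varied, pooled over the 32 ankle and fluid arrays of all days. That variation may be technical.

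K/BxN serum carries autoantibodies against glucose-6-phosphate isomerase, a glycolytic enzyme that lies on cartilage surfaces, and its transfer starts an arthritis that depends on neutrophils, complement and Fc receptors. Neutrophils cross the synovium and collect in the fluid, where they release interleukin 1 and chemokines that draw in further neutrophils, while fibroblasts of the synovial lining produce chemokines and proteases that degrade matrix. CXCR2, the receptor in the title of the series, is the neutrophil receptor for the chemokines CXCL1, CXCL2 and CXCL5.

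Array medians lay between 61.3 and 64.1 intensity units in ankle and between 58.4 and 62.7 in fluid cells. Replicates correlated across genes at r from 0.959 to 0.982 in ankle and from 0.949 to 0.981 in fluid cells, and arrays of different material at r from 0.909 to 0.953. The ratio of the 3 prime to the 5 prime control probe set of beta-actin, a measure of RNA length, was 3.34 to 3.83 in ankle and 2.69 to 2.90 in fluid cells on the log2 scale, with no overlap. Albumin (Alb), a liver transcript, had a level of 8.41 on the log2 scale in ankle replicate 1 and 4.36 to 4.87 in the other ankle arrays. Levels below are log2 intensities and differences are fluid cells minus ankle on the log2 scale ± the standard error of limma, with p-values adjusted over all 8252 genes. The 95th percentile of the negative control probe sets was 6.85. A fold is given only where both group means lay above that level, and a difference from a mean under that level understates or at most bounds the true one from below.

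Of the listed genes, 15 of 21 of monocytes and macrophages and 15 of 25 of mature neutrophils were higher in fluid cells, and 15 of 22 of skeletal muscle, 9 of 13 of adipocytes, 16 of 19 of blood vessels and 24 of 40 of collagens and matrix were lower. Of the 8252 genes, 811 (9.83%) were higher and 591 (7.16%) lower in fluid cells past the threshold of 0.05, 1402 in all (17.0%). A difference of at least 1 was seen in 359 of the higher genes (4.35% of all genes) and in 193 of the lower genes (2.34%). The 4 and 4 arrays did not overlap for 717 genes higher in fluid cells (8.69%) and 586 genes lower (7.1%), and the median difference over all genes was -0.05. For 4655 genes (56.4%) neither group mean lay above the negative controls. Among the other 3597 genes, 610 (17.0%) were higher and 360 lower in fluid cells.

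With fluid replicate 4, prepared with 2 rounds like ankle, as the only fluid array of day 7, 175 genes were higher and 164 lower, where this lone array was assumed to vary like the other groups. With the described rounds of amplification as a covariate, 378 genes were higher and 310 lower. When the beta-actin ratio was added as a covariate, the counts were 529 and 365.

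**Figure D1:**
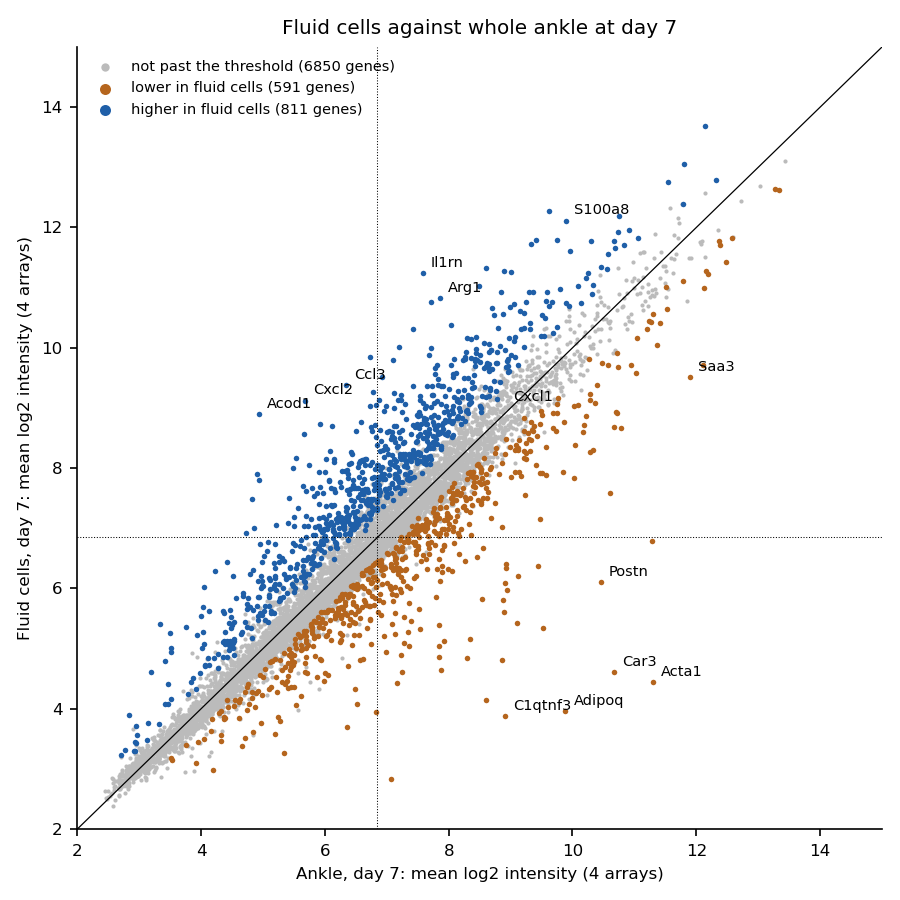
Mean log2 intensity of each of 8252 genes in the 4 ankle arrays (horizontal axis) and the 4 fluid arrays (vertical axis) at day 7, with 811 genes higher in fluid cells in blue and 591 lower in brown. Dotted lines mark 6.85, the 95th percentile of the negative controls, and the solid line marks equal levels. The brown genes reach farther from the line than the blue ones, with Acta1 and Car3 high in ankle and under the dotted line in fluid cells.

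The gene with the largest difference in favour of fluid cells was Acod1, the enzyme that makes itaconate in activated myeloid cells. Its levels were 4.75, 5.08, 4.82 and 5.07 in ankle replicates 1 to 4 and 8.25, 9.80, 9.22 and 8.34 in fluid replicates 1 to 4. All fluid arrays lay over 3 log2 units above the highest ankle array, and the difference was 3.97 ± 0.34 (adjusted p = 1.6e-09). Il1rn, which encodes the antagonist of the interleukin 1 receptor, read 7.73, 7.61, 7.00 and 7.98 in ankle and 10.44, 11.71, 11.69 and 11.13 in fluid cells. Both means lay above the negative controls, and Il1rn was 12.6-fold higher in fluid cells (3.66 ± 0.35, adjusted p = 8.51e-09). Il1b, the inflammatory cytokine that this antagonist opposes, read 6.91, 6.88, 6.56 and 6.55 in ankle and 9.18, 10.77, 9.86 and 9.59 in fluid cells. The groups did not overlap for Il1b, and the difference was 3.13 ± 0.35 (adjusted p = 2.04e-07). Ccl3, a CC chemokine of myeloid cells also called MIP-1 alpha, lay between 6.21 and 6.44 in ankle and between 9.18 and 9.55 in fluid cells. It was among the tightest of the leading differences, at 3.04 ± 0.18 (adjusted p = 1.2e-12).

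Of the other leading genes, Arg1 and Slfn4 were bright in both groups. Arg1, the arginase of alternatively activated and inflammatory macrophages, read 8.68, 8.06, 7.1 and 7.59 in ankle and 9.68, 11.30, 11.32 and 11.03 in fluid cells. Fluid replicate 1, the washed out sample, was the lowest fluid array for Arg1 and still lay above every ankle array, and the difference was 7.86-fold (2.97 ± 0.53, adjusted p = 1.37e-04). Ankle replicate 1, the array with the high albumin level, was the highest ankle array for Arg1. The ankle arrays of day 0 ranged from 4.13 to 6.49 for Arg1, and whether liver RNA added to its ankle levels was not tested. Arg1 passed the threshold in all 8 fits without 1 array. Slfn4, a Schlafen family gene of myeloid cells, lay between 7.21 and 7.96 in ankle and between 9.88 and 11.19 in fluid cells, an 8.22-fold difference (3.04 ± 0.26). Asprv1, which encodes a retroviral-like aspartic protease, was 7.46-fold higher (2.90 ± 0.27). Pag1, a membrane adaptor that holds an inhibitory Src family regulator, and C3ar1, the receptor of the complement fragment C3a, differed by 2.99 ± 0.26 and 2.90 ± 0.29, each from an ankle mean under the negative controls. For Acod1 and Pag1 a further probe set on the array gave a smaller difference, of 0.72 and 0.10.

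The 10 genes with the largest differences in favour of ankle were transcripts of muscle, fat and matrix. Acta1, the actin of skeletal muscle fibres, read 10.97, 9.86, 11.86 and 12.51 in ankle and 4.42, 4.54, 4.37 and 4.44 in fluid cells. The fluid arrays all lay under the negative controls, and the difference was -6.86 ± 0.40 (adjusted p = 1.2e-12). Car3, a carbonic anhydrase of muscle and fat, lay between 10.47 and 10.86 in ankle and between 4.52 and 4.66 in fluid cells (-6.07 ± 0.19, adjusted p = 2.35e-19). Adipoq, which encodes the fat hormone adiponectin, lay between 8.50 and 10.66 in ankle and between 3.91 and 4.04 in fluid cells (-5.92 ± 0.32). The muscle genes Tnnc2, Tnnt3, Myh1, Myl1 and Ckm, which encode fast troponins, a myosin heavy chain, a myosin light chain and creatine kinase, differed by -4.50, -4.45, -4.23, -4.18 and -4.06. Their ankle arrays spread widely, with Myh1 between 5.49 and 9.15, while its fluid arrays lay between 2.53 and 3.21. Further probe sets for Tnnc2 and Ckm gave differences of -0.0049 and -0.17.

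C1qtnf3 and Postn completed that group. C1qtnf3 encodes a secreted protein related to adiponectin, and it read 8.58, 9.91, 8.23 and 8.93 in ankle and 3.45, 3.54, 3.89 and 4.63 in fluid cells. Postn encodes periostin, a matrix protein of connective tissue fibroblasts, and read 10.06, 10.91, 10.36 and 10.50 in ankle and 5.29, 6.32, 6.28 and 6.55 in fluid cells. Both transcripts were high in every ankle array and under the negative controls in every fluid array, with differences of -5.04 ± 0.37 (adjusted p = 1.69e-10) and -4.35 ± 0.34 (adjusted p = 4.66e-10).

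**Figure D2:**
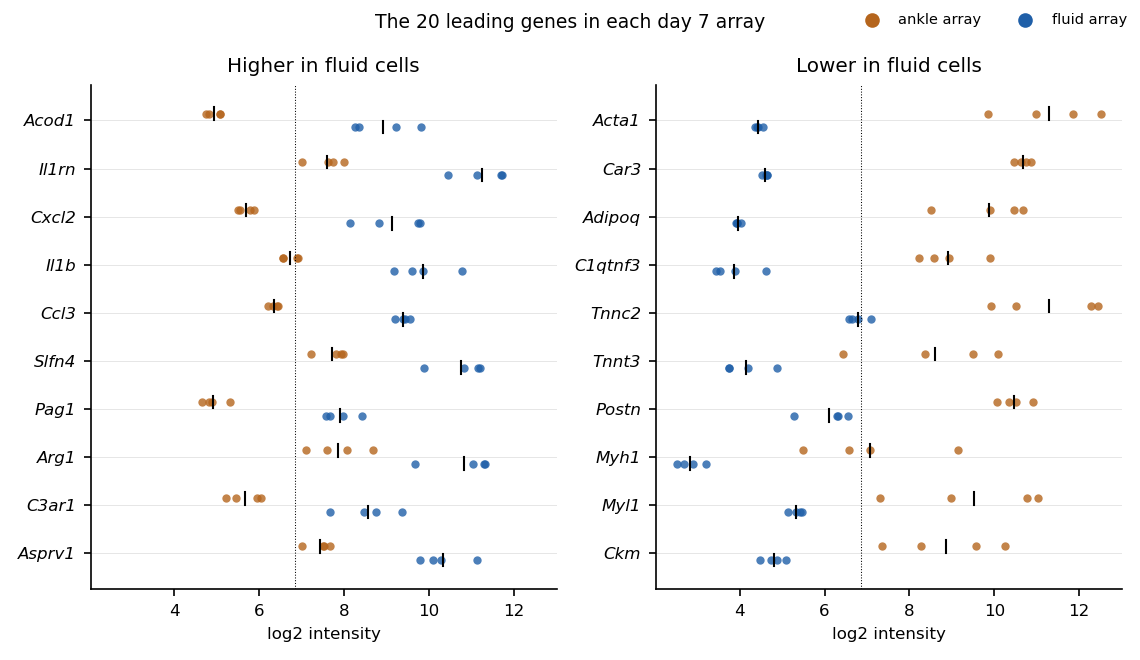
Log2 intensity of the 10 genes with the largest difference in each direction in each day 7 array, with 4 ankle arrays in brown, 4 fluid arrays in blue, group means as black bars and a dotted line at 6.85. Groups do not overlap for any of these 20 genes, by the rule that chose them. The ankle arrays of the muscle genes spread over 2 log2 units or more, and their fluid arrays cluster under or beside the dotted line.

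Of CXCR2 and its measured ligands, 2 of 4 genes were higher in fluid cells and 0 were lower. Of its ligands, Cxcl2 was higher in fluid cells, and Cxcl1 and Cxcl5 passed in neither direction. Cxcl2 read 5.54, 5.86, 5.79 and 5.50 in ankle and 8.13, 9.74, 9.78 and 8.83 in fluid cells. All fluid arrays stood over 2 log2 units above the ankle arrays, and the difference was 3.45 ± 0.30 (adjusted p = 1.89e-09). Cxcl1 read 9.40, 8.84, 8.97 and 8.40 in ankle and 8.50, 9.54, 9.70 and 8.31 in fluid cells. Its arrays overlapped, both groups were well above the negative controls, and the difference was 0.11 ± 0.43 (adjusted p = 0.909). Cxcl5 read 6.37, 7.17, 8.22 and 6.08 in ankle and 6.38, 8.03, 8.16 and 6.42 in fluid cells, and its difference was 0.29 ± 0.44 (adjusted p = 0.72). The spread of Cxcl5 within each group exceeded the difference between them. Cxcr2 lay between 3.96 and 4.19 in ankle and between 4.86 and 5.30 in fluid cells, a difference of 1.03 ± 0.15 (adjusted p = 8.08e-06) between groups that were both under the negative controls. Blood leukocytes at day 7 had mean levels of 8.75 for Cxcl2, 4.87 for Cxcl1 and 4.50 for Cxcl5.

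Cxcl1 and Cxcl2 are neighbours on mouse chromosome 5, and the 150 bases before their starts are shown because these related genes differed in where they were read. The sequences are those of RefSeq on build GRCm38.p6, plus strand, at chr5:90891095-90891244 for Cxcl1 and chr5:90903749-90903898 for Cxcl2, and lie outside the transcript. Capitals mark matches to GGG and TTTCC with any 2 bases between them, a form of the kappa B site bound by NF-kappa B factors, on either strand.
Cxcl1: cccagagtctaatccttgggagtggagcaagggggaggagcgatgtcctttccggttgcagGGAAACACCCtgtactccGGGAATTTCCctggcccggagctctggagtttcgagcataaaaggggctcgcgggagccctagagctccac
Cxcl2: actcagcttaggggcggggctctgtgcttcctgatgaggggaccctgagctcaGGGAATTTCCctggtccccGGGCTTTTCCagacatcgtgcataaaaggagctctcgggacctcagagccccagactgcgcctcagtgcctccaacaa
Cxcl1 held 1 match in the forward and 1 in the reverse direction, and Cxcl2 held 2 in the forward direction. Such a match within 150 bases before the start was found for 291 of 27025 genes in the promoter table (1.08%), and for 87 of the 6577 array genes in it (1.32%). Of the 10 leading genes higher in fluid cells, 8 were in the table and 3 held a match, Il1rn, Cxcl2 and C3ar1. Of the 10 leading genes lower in fluid cells, 8 were in the table and 0 held one. A match is a description of the letters in this window and was not set against binding. The leading genes were picked by their differences in these data, and whether matches are more frequent among them was not tested.

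**Figure D3:**
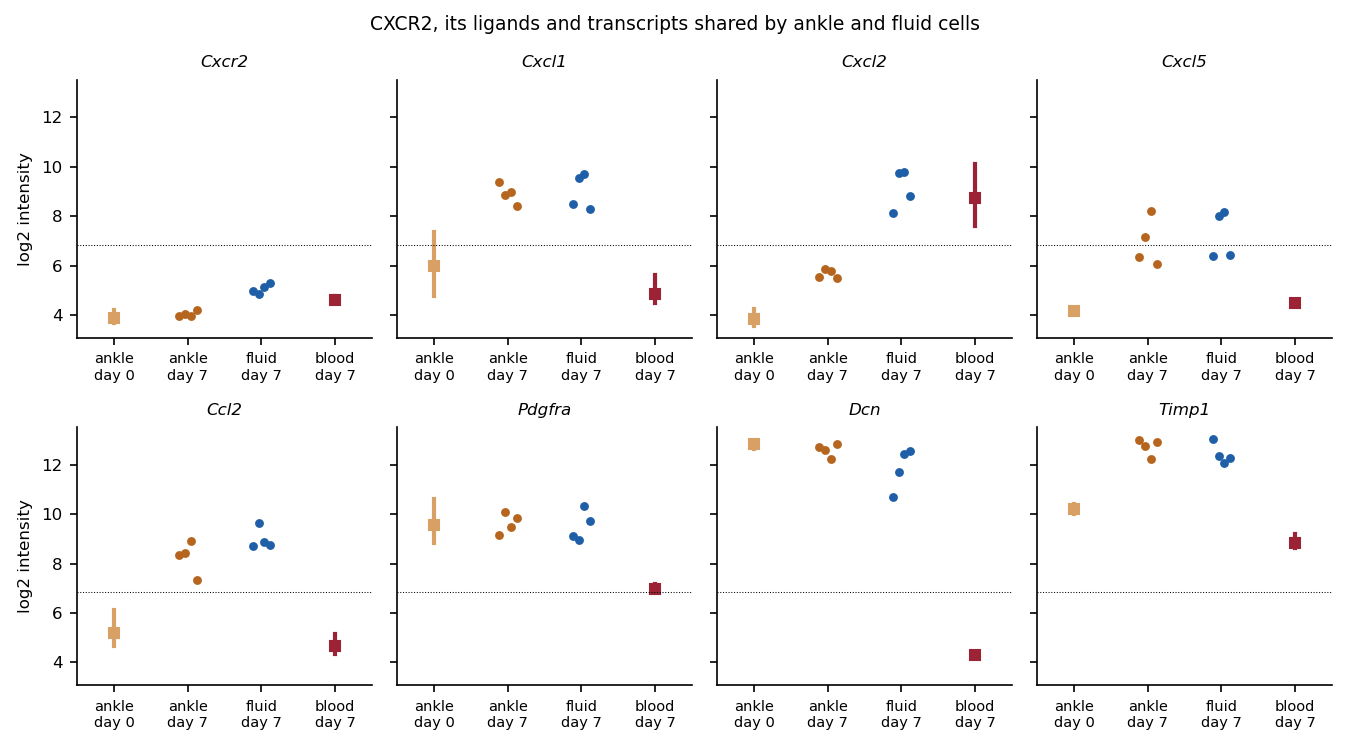
Log2 intensity of Cxcr2, its ligands Cxcl1, Cxcl2 and Cxcl5, and of Ccl2, Pdgfra, Dcn and Timp1. Points are single arrays of ankle (brown) and fluid cells (blue) at day 7, squares with bars are the mean and range of ankle at day 0 (4 arrays) and blood at day 7 (3 arrays), and the dotted line marks 6.85. Cxcl2 separates fluid cells from ankle, as does Cxcr2 under the line, while the arrays of the other 6 genes overlap.

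The transcripts of peak arthritis were taken as the 255 genes (3.09%) that were higher in ankle at day 7 than at day 0. Of these, 71 (27.8%) were higher in fluid cells than in ankle at day 7, 46 (18.0%) were lower, and 138 (54.1%) passed the threshold in neither direction. For comparison, 9.83% and 7.16% of all genes were higher and lower. Among the 138, 114 differed by at most 0.5, and the median difference over the 255 was -0.08. Arrays did not overlap for 61 of the higher and 37 of the lower genes. Without ankle replicate 2 in the list and the difference, 29 genes were lower. The ankle arrays of day 7 enter both the list and the difference, so a level that is high in them by chance raises the one and lowers the other. The list of 154 genes (1.87%) higher in ankle at day 12 than at day 0, which uses none of these arrays, had 56 genes (36.4%) higher and 26 (16.9%) lower in fluid cells at day 7. Of the 300 genes (3.64%) that were lower in ankle at day 7 than at day 0, 18 (6.00%) were higher and 82 (27.3%) lower in fluid cells.

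The 71 peak transcripts higher in fluid cells held 6 genes of the mature neutrophil list and 6 of the list of monocytes and macrophages. S100a8 and S100a9 encode the calcium-binding subunits of calprotectin, a main cytosolic protein of neutrophils. S100a8 had risen by 2.94 in ankle and read 10.31, 10.26, 9.41 and 9.58 there at day 7, against 11.91, 12.56, 12.02 and 11.96 in fluid cells. The lowest fluid array stood above the highest ankle array, and the difference was 4.68-fold (2.23 ± 0.22). S100a9, up by 3.18 in ankle, was 4.09-fold higher in fluid cells (2.03 ± 0.26). Clec4d, a myeloid C-type lectin that senses microbial and damaged-cell ligands, had risen by 3.49 in ankle and was 5.86-fold higher in fluid cells (2.55 ± 0.29), where it lay between 10.43 and 11.86.

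The 10 peak transcripts with the largest difference in favour of fluid cells were Acod1, Il1rn, Cxcl2, Il1b, Ccl3, Slfn4, Arg1, Fpr2, Hdc and Arg2. Fpr2, a formyl peptide receptor of phagocytes, differed by 2.87 ± 0.30, and Arg2, the mitochondrial arginase, by 2.65 ± 0.22, both from ankle means under the negative controls. A further probe set of Arg2 gave -0.18. Hdc, the enzyme that makes histamine, was 7.08-fold higher in fluid cells (2.82 ± 0.27). Its levels were 7.64, 7.15, 6.89 and 7.1 in ankle and 9.94, 10.84, 9.85 and 9.44 in fluid cells, without overlap. Mmp9, the gelatinase of neutrophil granules and of osteoclasts, showed the third largest rise of all peak transcripts in ankle, at 3.77. It read 9.88, 9.58, 8.95 and 8.86 in ankle and 10.24, 10.66, 10.68 and 9.66 in fluid cells, so the arrays overlapped at fluid replicate 4, and the difference was 1.99-fold (0.99 ± 0.26, adjusted p = 0.00681). Mmp9 missed the threshold with the 8 arrays of day 7 alone (adjusted p = 0.0535), with the rounds of amplification as a covariate (0.170) and with the ratio of beta-actin added (0.0659).

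Peak transcripts that were lower in fluid cells were led by secreted and matrix genes of connective tissue. The 46 also held 3 genes of the cell cycle list, given below. Saa3, a serum amyloid A that is made locally in inflamed tissue, showed the largest rise of all genes in ankle, at 5.76. It read 11.96, 12.56, 11.77 and 11.31 in ankle and 9.42, 9.81, 9.63 and 9.16 in fluid cells. Both groups were far above the negative controls and did not overlap, and Saa3 was 5.25-fold lower in fluid cells (-2.39 ± 0.31, adjusted p = 1.85e-06), with a mean of 4.94 in blood. C1qtnf3 had risen by 4.16 in ankle from a day 0 mean of 4.76 and stayed at 3.45 to 4.63 in fluid cells. Mmp3, the stromelysin of synovial fibroblasts, had risen by 3.72 and read 11.13, 10.45, 10.69 and 10.63 in ankle and 8.60, 9.37, 8.39 and 9.28 in fluid cells. It was 3.51-fold lower in fluid cells (-1.81 ± 0.30, adjusted p = 6.65e-05), again without overlap.

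Further peak transcripts on the ankle side were Postn, Acan, Cnn3, Mest, Ccl8, Sfrp2 and Mfap4. Acan, the aggrecan core protein of cartilage, read 8.62, 8.43, 6.93 and 7.4 in ankle and between 5.35 and 5.44 in fluid cells (-2.45 ± 0.24). All fluid arrays of Acan lay at the blood mean of 5.39. Cnn3, an actin-binding calponin, was 3.16-fold lower in fluid cells (-1.66 ± 0.19). Ccl8, a CC chemokine of tissue macrophages and stroma, lay between 8.69 and 10.39 in ankle and between 7.68 and 8.03 in fluid cells, a 2.95-fold difference (-1.56 ± 0.38, adjusted p = 0.00356), and missed the threshold with the rounds of amplification (0.106) or the beta-actin ratio (0.0583) as a covariate. Sfrp2, a secreted Wnt antagonist, Mfap4, a protein of elastic microfibrils, and the imprinted gene Mest differed by -1.55, -1.48 and -1.62 from fluid means under the negative controls. A further probe set of Mfap4 gave 0.06.

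Several of the transcripts with the largest rise in ankle passed the threshold in neither direction between the materials. Missing the threshold does not show that their levels were equal. Ccl2, the monocyte chemokine MCP-1, had risen by 3.04 and read 8.34, 8.44, 8.89 and 7.33 in ankle and 8.72, 9.63, 8.89 and 8.75 in fluid cells, a difference of 0.75 ± 0.32 (adjusted p = 0.116). Its relative Ccl7, up by 2.35, differed by -0.07 ± 0.28. The arrays of both chemokines overlapped. Timp1, the tissue inhibitor of metalloproteinases, had risen by 2.53 and lay at 12.21 or more in ankle and between 12.07 and 13.04 in fluid cells (-0.28 ± 0.23, adjusted p = 0.451). Slpi, an inhibitor of leukocyte proteases, had risen by 2.88 and differed by -0.30 ± 0.22. Mmp13, a collagenase of cartilage and synovium, had risen by 3.33, and its fluid arrays read 5.82, 7.3, 5.42 and 7.57 against 6.98 to 7.43 in ankle (-0.72 ± 0.41, adjusted p = 0.267). Fluid replicates 2 and 4 were as high as ankle for Mmp13, and replicates 1 and 3 were under the negative controls. Vcam1, an adhesion molecule of synovial fibroblasts and activated endothelium, had risen by 1.81 and differed by -0.09 ± 0.33, and Tnfsf11, which encodes the osteoclast cytokine RANKL, had risen by 1.56 and differed by -0.08 ± 0.27.

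**Figure D4:**
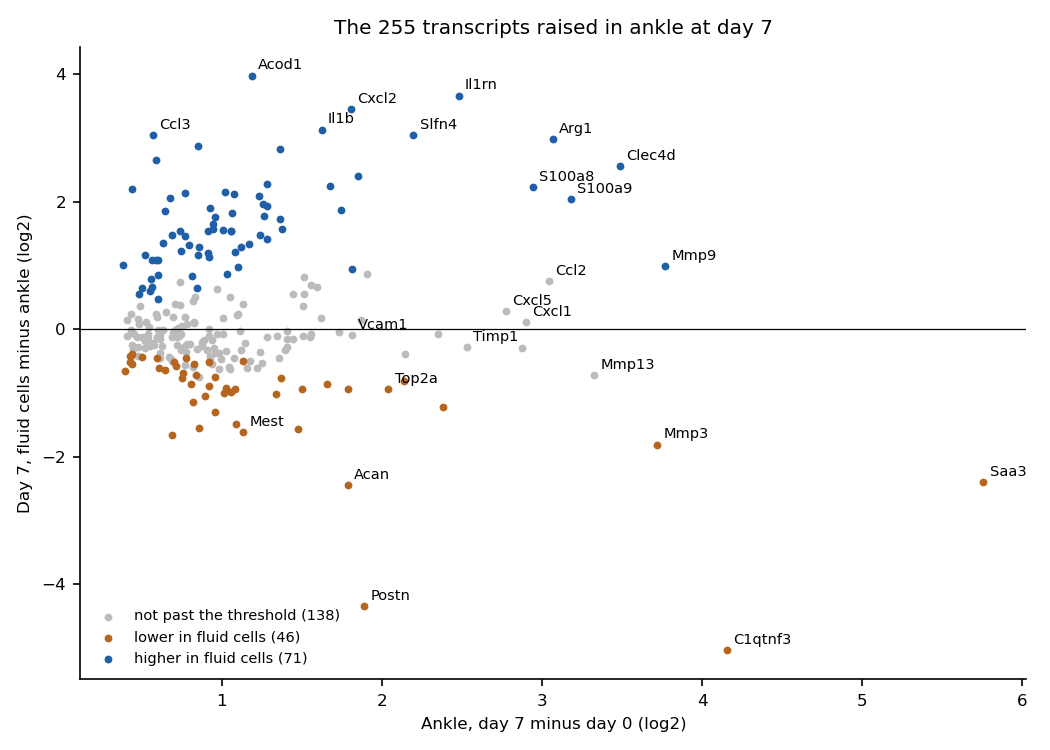
Rise in ankle from day 0 to day 7 (horizontal axis, log2) and difference between fluid cells and ankle at day 7 (vertical axis, log2) for the 255 transcripts raised in ankle. Blue marks the 71 genes higher in fluid cells, brown the 46 lower and grey the 138 that passed in neither direction. Saa3, C1qtnf3 and Mmp3 rose most among the genes below the line, Arg1, Clec4d, S100a8 and S100a9 among those well above it, and Ccl2, Cxcl1 and Timp1 lie near it.

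Marker lists were read against the shares over all genes, 9.83% higher and 7.16% lower, and their counts carry no test of the list. In bulk arrays, more cells of a type and more RNA per cell cannot be told apart. Of 25 measured mature neutrophil genes, 15 were higher in fluid cells and 1 was lower, and the median difference was 0.99. Csf3r, the receptor of the neutrophil growth factor G-CSF, read 8.04, 7.51, 7.3 and 7.88 in ankle and 10.19, 10.31, 9.59 and 9.44 in fluid cells, a 4.59-fold difference (2.20 ± 0.25). Il1r2, the decoy receptor of interleukin 1, was 6.62-fold higher (2.73 ± 0.32), and Ncf4, a cytosolic subunit of the phagocyte oxidase, 4.1-fold higher (2.03 ± 0.26). Mmp8, the neutrophil collagenase, differed by 2.04 ± 0.23. The gene against the direction of the list was Hp, which encodes haptoglobin, at 1.61-fold lower (-0.69 ± 0.21, adjusted p = 0.0206), and it missed the threshold without ankle replicate 2 (0.0754) and without fluid replicate 3 (0.0960). The granule genes Ltf, Camp and Mpo did not pass, with Ltf at 0.03 ± 0.15, Camp at -0.19 ± 0.21 and, on the list of precursors, Mpo at -0.14 ± 0.14. Of those 5 precursor genes, 1 was higher, Chil3 (1.85 ± 0.27), a chitinase-like protein that macrophages also make.

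Of 21 genes of monocytes and macrophages, 15 were higher in fluid cells and 0 were lower, with a median of 1.2. Cd14, the coreceptor for bacterial lipopolysaccharide, read 9.95, 9.74, 9.05 and 9.72 in ankle and 12.04, 12.67, 12.28 and 12.14 in fluid cells, a 6.35-fold difference (2.67 ± 0.23). Cd68, a lysosomal protein of macrophages, lay between 7.63 and 8.41 in ankle and between 10.18 and 10.76 in fluid cells, a 5.07-fold difference (2.34 ± 0.26). Neither overlapped between the groups. C1qa, a subunit of complement C1q that macrophages make, was 3.15-fold higher (1.66 ± 0.30) and had a mean of 6.07 in blood. Adgre1, the macrophage surface protein F4/80, differed by 1.68 ± 0.25. Csf1r, the receptor of macrophage colony stimulating factor, was 2.21-fold higher (1.15 ± 0.24, adjusted p = 0.001), with overlapping arrays, and missed the threshold with the rounds of amplification as a covariate (0.215). Further probe sets of Cd68 and Csf1r gave -0.03 and -0.24. Summed over the list as a mean, the level was 7.37 to 7.72 in ankle, 8.43 to 8.98 in fluid cells and 6.47 to 6.84 in blood.

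Most measured lymphocyte genes were too dim to compare. A group mean above the negative controls was seen for 3 of 14 B cell, 5 of 15 T cell and 0 of 8 NK cell genes. Of 14 B cell genes, 0 passed the threshold, and the mean level of the list was 5.87 to 6.09 in fluid cells and 8.14 to 8.24 in blood. Of 15 T cell genes, 2 were higher (13.3%) and 1 was lower (6.67%), near the shares of 9.83% and 7.16% over all genes. Il7r, the receptor of interleukin 7, differed by 2.19 ± 0.18 and read 6.70 to 7.2 in fluid cells, around the negative controls, with a mean of 9.50 in blood. Cd28, a costimulatory receptor, differed by 0.54 ± 0.15 under the negative controls and missed the threshold without ankle replicate 1 (adjusted p = 0.0505). Thy1, a surface protein of T cells in mice that fibroblasts and nerves also carry, was lower in fluid cells at 7.36, 6.17, 6.31 and 6.25 against 8.95, 8.85, 8.09 and 7.93 in ankle (-1.94 ± 0.27). Of 8 NK cell genes, 1 was higher, the receptor gene Klrd1 (1.08 ± 0.18), and of 9 dendritic cell genes, 1 was higher, the integrin gene Itgax (0.79 ± 0.18). Itgax missed the threshold with the rounds of amplification as a covariate (adjusted p = 0.0524). Of 12 genes of mast cells and eosinophils, 1 was higher and 2 were lower, among them Cpa3, the carboxypeptidase of mast cell granules (-0.73 ± 0.19), which missed the threshold with that covariate (adjusted p = 0.420). Of 7 genes of red cells and platelets, 0 passed.

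Most measured genes of muscle, fat and vessels were lower in fluid cells. Of 22 skeletal muscle genes, 15 were lower and 0 higher, with a median of -1.30. The mean level of that list was 6.80 to 8.28 in ankle, 5.51 to 5.78 in fluid cells and 5.74 to 5.86 in blood. Of 19 blood vessel genes, 16 were lower, with a median of -1.20. Cdh5, the cadherin of endothelial junctions, read 7.89, 8.43, 7.64 and 7.53 in ankle and 4.26, 4.60, 4.90 and 4.80 in fluid cells (-3.23 ± 0.29). Acta2, the actin of smooth muscle, was 8.13-fold lower (-3.02 ± 0.26), and Emcn and Vwf, of endothelial cells, differed by -2.80 ± 0.21 and -2.72 ± 0.32. Of 13 adipocyte genes, 9 were lower, among them Fabp4, a fatty acid carrier (-1.90 ± 0.23), and Scd1, a fatty acid desaturase (3.43-fold lower). The ankle list mean was 6.68 to 7.45 and the fluid mean 5.29 to 5.46, beside 5.23 to 5.27 in blood.

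Synovial fibroblast genes were split. Of 25 measured, 11 were lower in fluid cells, 0 were higher and 14 passed in neither direction, with a median of -0.64. Beside Postn and Thy1, the matrix genes Timp3, Fmod and Mfap5 differed by -2.91 ± 0.30, -2.83 ± 0.25 and -2.33 ± 0.23. Other fibroblast transcripts were bright in fluid cells. Dcn, which encodes the proteoglycan decorin, read 12.70, 12.61, 12.24 and 12.82 in ankle and 10.70, 11.71, 12.43 and 12.54 in fluid cells (-0.74 ± 0.29, adjusted p = 0.0806), beside a mean of 4.30 in blood. Fluid replicate 1, the washed out sample, was the lowest and replicates 3 and 4 overlapped with ankle. Pdgfra, a growth factor receptor of fibroblasts, read 9.13, 8.94, 10.32 and 9.73 in fluid cells and 9.17 to 10.08 in ankle (-0.11 ± 0.32), and Lum, which encodes lumican, differed by -0.39 ± 0.49. The fluid arrays thus held fibroblast transcripts. The muscle gene Acta1 and the fat gene Adipoq lay under the negative controls there, but the fat gene Scd1 had a fluid mean above them. Of the muscle list, 7 of 22 genes passed in neither direction, as did 4 of 13 of the adipocyte list. At day 3 the difference of Dcn was -2.77 and that of Pdgfra -2.23, and at day 12 they were -0.12 and -0.24. Whether such RNA came from cells in the fluid or from tissue taken with it was not tested. The mean level of the fibroblast list was 8.50 to 8.97 in ankle, 7.54 to 7.70 in fluid cells and 5.41 to 5.51 in blood.

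For the other tissues of the joint, 2 of 14 cartilage genes were lower in fluid cells, Acan and Cilp2, and 0 were higher. Cilp2, a matrix protein of cartilage, lay between 10.01 and 10.86 in ankle and at 8.11, 8.11, 8.09 and 8.90 in fluid cells (4.1-fold lower, -2.04 ± 0.22). Of 5 osteoblast genes and 14 skin epithelium genes, 0 passed. Of 9 osteoclast genes, 2 were higher, Mmp9 and the transcription factor gene Nfatc1 (0.94 ± 0.28), which missed the threshold without ankle replicates 2 or 3 or fluid replicate 2 (adjusted p = 0.0640, 0.118 and 0.0760) and with the replicate number as a block (0.0917). Of 4 tendon genes, 2 were lower, and of 5 lymphatic vessel genes, 1 was lower. Of 8 genes of nerve and Schwann cells, Pmp22 and Sox10 were lower (-2.18 ± 0.33 and -0.67 ± 0.16) and Mbp was higher (1.28 ± 0.19). Sox10 missed the threshold with the rounds of amplification as a covariate (adjusted p = 0.248). Mbp encodes myelin basic protein and forms of it that leukocytes make, and its probe sets disagreed, with the lowest at -3.61. Of 14 liver genes, Cyp2e1 was lower (-2.53 ± 0.50), a cytochrome that fat also makes, and Alb did not pass (-0.97 ± 0.95).

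**Figure D5:**
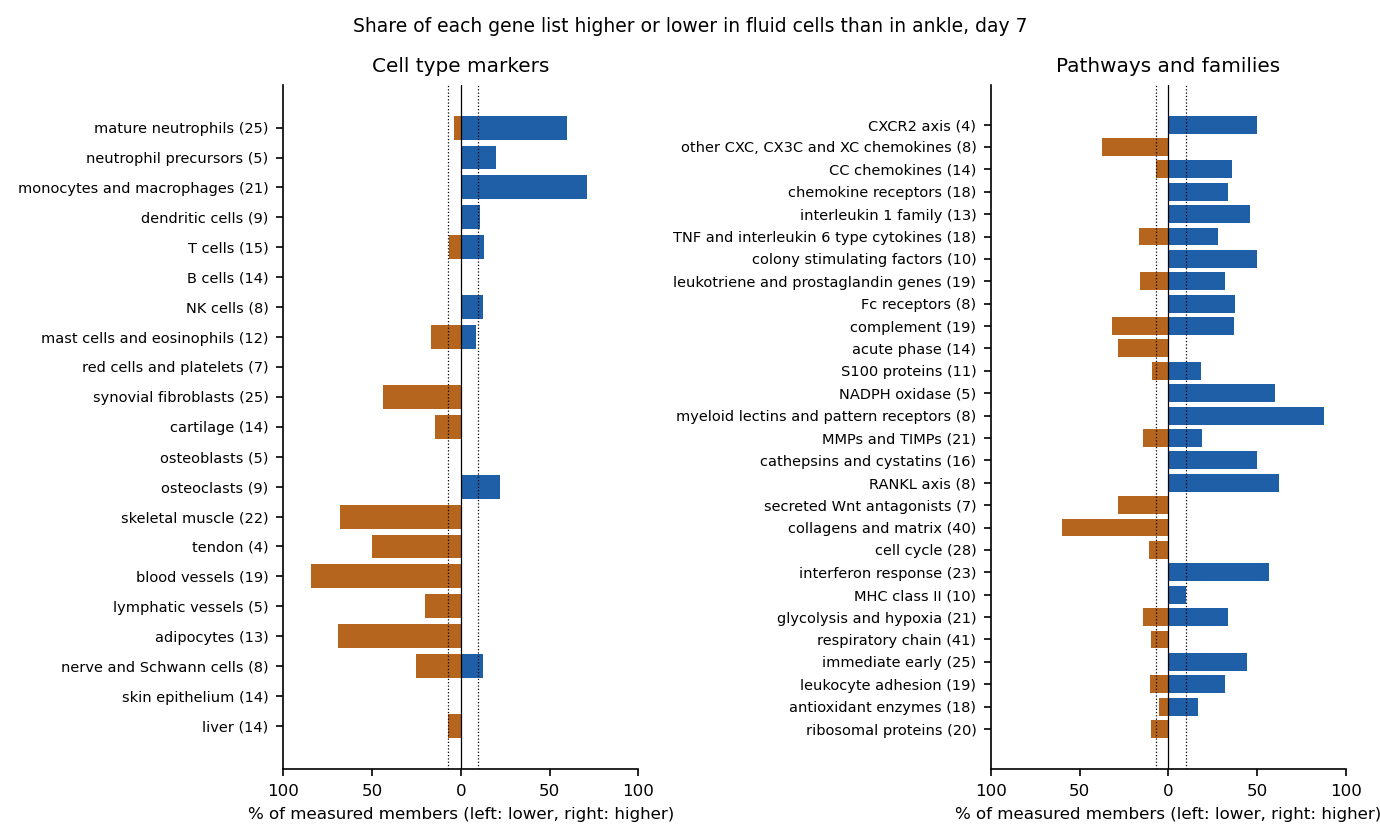
Share of the measured members of each gene list (number in brackets) that were higher (blue, to the right) or lower (brown, to the left) in fluid cells than in ankle past the threshold at day 7. Dotted lines mark the shares over all genes, 9.83% and 7.16%. Myeloid lists extend to the right, and vessel, fat, muscle and matrix lists to the left.

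Of 14 CC chemokines, 5 were higher in fluid cells and 1 was lower, Ccl8. Beside Ccl3, its close relative Ccl4 differed by 1.93 ± 0.26, and Ccl9 and Ccl6, chemokines of mouse myeloid cells, were 2.9-fold and 2.53-fold higher. Of 8 other CXC, CX3C and XC chemokines, 3 were lower and 0 higher. Of 18 chemokine receptors, 6 were higher and 0 lower. Ccr1, a receptor for Ccl3, read 5.29, 5.64, 5.26 and 5.96 in ankle and 7.3, 9.41, 7.69 and 8.30 in fluid cells (2.64 ± 0.39). Cxcr4, the receptor of CXCL12, differed by 2.06 ± 0.27, the chemerin-binding receptor Ccrl2 by 1.80 ± 0.21 and the monocyte receptor Ccr2 by 1.34 ± 0.29.

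Of 13 genes of the interleukin 1 family, 6 were higher in fluid cells and 0 lower. Beside Il1rn, Il1b and Il1r2, they included Casp1, the protease that matures interleukin 1 beta (1.29 ± 0.17). The signalling receptor Il1r1, a peak transcript of ankle, differed by -0.53 ± 0.23 and did not pass (adjusted p = 0.11, or 0.0301 with the replicate number as a block). Of 18 genes of TNF and interleukin 6 type cytokines, 5 were higher and 3 lower. Tnfrsf1b, the second TNF receptor, was 3.13-fold higher (1.65 ± 0.20), Ltb, which encodes lymphotoxin beta, differed by 1.99 ± 0.24, and Tnf by 0.79 ± 0.16 between means under the negative controls. On the ankle side stood Il6st, the shared signalling receptor gp130, at 2.98-fold lower in fluid cells (-1.58 ± 0.24). Of 10 colony stimulating factor genes, 5 were higher and 0 lower, among them Csf2rb2, an interleukin 3 receptor subunit (3.01-fold), and Csf1, the macrophage growth factor (2.18-fold). Of 19 leukotriene and prostaglandin genes, 6 were higher and 3 lower. Pla2g7, which degrades platelet activating factor, differed by 2.14 ± 0.29, Ptgs2, the inducible cyclooxygenase, by 1.42 ± 0.37 under the negative controls, and Ptgis, the prostacyclin synthase of vessels, by -1.36 ± 0.21. Ptgs2 missed the threshold when the beta-actin ratio was a covariate (adjusted p = 0.115).

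Some Fc receptor genes were higher in fluid cells, and complement genes passed in both directions. Of 8 Fc receptor genes, 3 were higher in fluid cells and 0 lower. Fcgr1, the receptor with high affinity for IgG, lay between 6.59 and 7.03 in ankle and at 8.16, 9.63, 8.31 and 8.37 in fluid cells (1.85 ± 0.26). Fcer1g, the signalling chain shared by activating Fc receptors, differed by 1.71 ± 0.22 and the inhibitory receptor Fcgr2b by 1.56 ± 0.20, while the probe set of Fcgr3 read 5.79 to 6.64 in fluid cells, under the negative controls, and overlapped with ankle. Of 19 complement genes, 7 were higher in fluid cells and 6 lower. The higher ones included the 3 chains of C1q and C3ar1, and the lower ones the inhibitors Serping1 (4.0-fold lower, -2.0 ± 0.28), Cd59a (-1.95 ± 0.25) and Clu (-1.80 ± 0.26), of which Clu encodes clusterin. Of 14 acute phase genes, 0 were higher and 4 lower, led by Saa3 and by Serpina3n, a serine protease inhibitor (4.06-fold lower).

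Among enzymes of phagocytes, 3 of 5 NADPH oxidase genes were higher in fluid cells and 0 lower, with Cyba 3.13-fold higher. Of 8 myeloid lectin and pattern receptor genes, 7 were higher and 0 lower, with a median of 2.09. Tlr6, a partner of TLR2, read 5.36, 5.62, 5.61 and 5.36 in ankle and 8.01, 8.41, 8.16 and 7.45 in fluid cells (2.52 ± 0.20). Of 16 cathepsin and cystatin genes, 8 were higher and 0 lower. Ctsb, a lysosomal cysteine protease, lay between 10.08 and 10.48 in ankle and between 11.65 and 11.96 in fluid cells, a 2.77-fold difference (1.47 ± 0.20). Ctsc, which activates the serine proteases of neutrophil granules, differed by 1.92 ± 0.39, and its fluid replicate 1 was the lowest at 7.45. Of 21 genes of metalloproteinases and their inhibitors, 4 were higher and 3 lower. Beside Mmp8 and Mmp9, the membrane protease Adam8 was 3.82-fold higher (1.93 ± 0.23). Of 11 S100 genes, 2 were higher and 1 lower, and of 18 antioxidant genes, 3 were higher and 1 lower, led by the glutathione reductase Gsr (3.33-fold higher).

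Of 40 collagen and matrix genes, 24 were lower in fluid cells and 0 higher, with a median of -0.99. Mgp, the matrix Gla protein that inhibits calcification, read 8.87, 9.44, 8.81 and 8.48 in ankle and 5.43, 5.86, 5.54 and 5.56 in fluid cells (-3.30 ± 0.28). Tnxb, which encodes tenascin X, differed by -3.06 ± 0.44. Col1a1, a chain of type I collagen, was bright in both groups and 2.17-fold lower in fluid cells (-1.12 ± 0.32, adjusted p = 0.0147), and missed the threshold without ankle replicate 4 (0.0617) or fluid replicate 4 (0.0504). Of 7 secreted Wnt antagonists, 2 were lower, led by Sfrp2, and of 8 genes of the RANKL axis, 5 were higher, led by Fos and Tyrobp, the latter an adaptor of myeloid receptors (2.39 ± 0.30).

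Response programmes of cells differed in number. Of 23 interferon response genes, 13 were higher in fluid cells and 0 lower, with a median of 0.70. Rsad2, which encodes the antiviral protein viperin, read 5.59, 5.96, 5.48 and 5.93 in ankle and 7.67, 8.48, 8.64 and 7.41 in fluid cells (2.31 ± 0.32), and Mx1 differed by 1.60 ± 0.25 under the negative controls. Ifit3 differed by 1.76 ± 0.37, with fluid replicate 4 the lowest at 6.08, and did not pass with the rounds of amplification as a covariate (adjusted p = 0.148). Of 10 MHC class II genes, 1 was higher, H2-Ab1 (0.97 ± 0.30, adjusted p = 0.0216), and it missed the threshold without ankle replicates 3 or 4 (0.0764 and 0.0861) and without fluid replicates 1 or 2 (0.0820 and 0.130). With the rounds of amplification as a covariate the difference of H2-Ab1 was 0.385 (adjusted p = 0.729), and with fluid replicate 4 only it was -0.1149 (0.941). Of 25 immediate early genes, 11 were higher and 0 lower. Fos read 6.38, 8.0, 6.50 and 6.79 in ankle and 8.43, 9.75, 10.44 and 9.43 in fluid cells, a 6.02-fold difference (2.59 ± 0.63, adjusted p = 0.0036), and missed the threshold when the beta-actin ratio was a covariate (0.0519). Dusp1, a phosphatase of MAP kinases, was 3.68-fold and Klf6, a zinc finger factor, 3.47-fold higher.

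Of 28 cell cycle genes, 0 were higher and 3 lower in fluid cells, and 15 of the 28 were peak transcripts of ankle. Top2a, the topoisomerase of dividing cells, had risen by 2.04 in ankle and read 6.72, 7.59, 7.57 and 6.83 there and 6.05, 6.20, 6.62 and 6.10 in fluid cells (-0.94 ± 0.19). Kif20a, a mitotic kinesin, differed by -1.02 ± 0.20, and Mcm2, a helicase subunit of DNA replication, by -0.45 ± 0.12 (adjusted p = 0.00684, or 0.0533 with the replicate number as a block). Of 21 glycolysis and hypoxia genes, 7 were higher and 3 lower. Pgam1, phosphoglycerate mutase, was 2.11-fold higher and the glucose transporter Slc2a3 differed by 1.04 ± 0.19, while Ndrg1 was 2.06-fold lower and Pfkm, the muscle form of phosphofructokinase, differed by -1.0 ± 0.24 (adjusted p = 0.0737 with the rounds of amplification as a covariate). Of 41 respiratory chain genes, 0 were higher and 4 lower, and of 20 ribosomal protein genes, 0 were higher and 2 lower. Of 19 leukocyte adhesion genes, 6 were higher and 2 lower. The higher ones included the integrin chain Itgb2 (2.49 ± 0.27) and the selectin ligand Selplg (3.52-fold), on the leukocyte side of the contact. Cd44 was also higher (1.16 ± 0.24), with overlapping arrays. The lower ones were P-selectin (Selp, -1.14 ± 0.14) and Icam2 (-1.0 ± 0.20), which endothelium carries.

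Of the genes named above and past the threshold, 36 had more than 1 probe set, and for 25 of these another probe set gave less than 25% of the difference or the opposite sign. The sign was opposite for 7, Arg2, Mfap4, Csf3r, Cd68, Csf1r, Scd1 and Mbp, of which all but Mbp lay within 0.24 of 0. The other 18 were Acod1, Pag1, Tnnc2, Ckm, Adgre1, Emcn, Vwf, Fmod, Mfap5, Cilp2, Pmp22, Sox10, Il6st, Csf2rb2, Fcer1g, Ctsb, Fos and Slc2a3.

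The fluid and ankle arrays of days 3, 12 and 18 are separate from those of day 7, so the signs of their differences rest on other arrays. Passing the threshold on several days is not independent, because the same fit covered all days and pooled each gene's spread over them. The preparation described above for ankle may apply on these days too, and its part in the repeat was not tested. Of the 811 genes higher in fluid cells at day 7, 804, 804 and 785 had the same sign at days 3, 12 and 18, and 682, 500 and 371 passed the threshold in the same direction. Of the 591 lower genes, 587, 581 and 573 had the same sign, and 457, 364 and 293 passed in the same direction. No gene passed in the opposite direction on any of these days, 340 of the higher and 249 of the lower genes passed on all 3, and the counts over all genes on each day were 1025 higher (12.4%) and 849 lower (10.3%) at day 3, 614 (7.44%) and 495 (6.00%) at day 12, and 441 (5.34%) and 441 (5.34%) at day 18. Cxcl2 differed by 5.07, 3.82 and 3.76 at days 3, 12 and 18, and Acta1 by -6.41, -6.36 and -7.48. C1qtnf3 differed by -0.90 at day 3 (adjusted p = 0.15) and by -5.30 and -4.66 at days 12 and 18.

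Whether the day 7 difference itself stood apart from the mean of days 3, 12 and 18 was tested as an interaction, and 2 of 8252 genes passed (0.0242%), with 243 genes (2.94%) at an unadjusted p under 0.05. Cilp2 differed by -2.04 at day 7 and by -4.31, -3.33 and -3.48 at days 3, 12 and 18, an interaction of 1.67 ± 0.26 (adjusted p = 0.00592). The ankle level of Cilp2 changed by -2.50 from day 0 to day 7. Il4, the cytokine of type 2 responses, differed by 0.59 at day 7 and by 2.92, 1.53 and 1.72 on the other days, an interaction of -1.47 ± 0.27 (adjusted p = 0.0363), with all day 7 arrays between 3.39 and 4.79, under the negative controls. Its probe sets spanned differences from -0.03 to 0.59 at day 7. The count of 2 was 1 without ankle replicate 1 or 4 or fluid replicate 1 or 3, and 3 without ankle replicate 3.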

How the data were processed

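Affymetrix MG-U74Av2 arrays were deposited as linear intensity values of 12488 probe sets, which the authors made with RMA, per the submitters' processing notes (version not given in the sources used here). RMA removes background and makes array distributions alike, so a shift common to most genes would not be seen. Values were log2 transformed. Each of 8252 genes was read from the probe set with 1 gene symbol and the highest mean over all 49 arrays. limma 3.58.1 in R 4.3.3 (lmFit, eBayes with an intensity trend) was fitted to the 32 ankle and fluid arrays, with 1 mean per material and day, and p-values were adjusted by Benjamini-Hochberg over all genes at 0.05. The ankle list came from a fit to the 19 ankle arrays. In simulated data of 8252 genes, 200 were changed, with normal noise of the same spread in ankle and fluid cells. There, 80% of changes of 1 and 97% of changes of 2 on the log2 scale were recovered, and 3.28% of calls were false. Measured spreads could be unequal, with standard deviations for Acta1 of 1.15 in ankle and 0.07 in fluid cells, and preparation was not simulated. These rates may therefore not hold for the measured arrays.

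Genes named are CXCR2 and its ligands, the 10 largest differences each way without overlap of arrays, the ankle transcripts with the largest rise or difference, the 2 genes of the interaction, and list members, largest differences first. Members and lists were chosen with earlier results of these data known. The titles number replicates 1 to 4 in both groups. Deviations from the group means correlated at 0.408, 0.306, 0.181 and 0.582 for same-numbered arrays. Pairs of unlike number ranged from -0.389 to 0.318, the highest for ankle replicate 2 with fluid replicate 3. Only the same-numbered pairs 1 and 4 exceeded all of these. The replicate number was also fitted as a block. Other alternatives changed the arrays in the fit, normalization, filter, probe sets, variance model, weights, covariates and single arrays.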

Additional observations from a re-analysis of the deposited data

Results flagged for a closer look

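In 12 of the groups of 4 arrays examined, 1 array stood apart from the others by Dixon's criterion, out of 280 groups of named genes, where chance gives about 1 in 20. Among genes of leukocytes, S100a8 was highest in fluid replicate 2 (12.565, others up to 12.023), as was Fcgr1 (9.626, others up to 8.371). Ctsc was lowest in fluid replicate 1 (7.453, others from 9.047), Selplg was lowest in fluid replicate 4 (9.764, others from 10.734), and Itgax was highest in ankle replicate 4 (6.862, others up to 6.371). Among genes of connective tissue and fat, Thy1 was highest in fluid replicate 1 (7.36, others up to 6.31), and Cilp2 was highest in fluid replicate 4 (8.902, others up to 8.11). Mest was highest in fluid replicate 1 (3.936) and in ankle replicate 2 (5.998), both under the negative controls. Tnfsf11 was lowest in ankle replicate 2 (4.809), Ndrg1 was lowest in fluid replicate 4 (8.821, others from 9.346), and Alb was highest in ankle replicate 1 (8.408, others up to 4.872).

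The difference between fluid cells and ankle at day 7 stood apart from the mean of days 3, 12 and 18 for Cilp2 by 1.67 and for Il4 by -1.465, by the interaction contrast of limma.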

How the results depend on the processing

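The counts of 811 higher and 591 lower genes became 175 and 164 with fluid replicate 4 only, 378 and 310 with the rounds of amplification as a covariate, and 529 and 365 with the beta-actin ratio added, and the lower count became 353 with the 8 arrays of day 7. The first and the last of these settings use fewer samples, and for the others the cause was not tested. Of the transcripts raised in ankle, 71 were higher and 46 lower, against 169 and 79 with array weights, where the ankle list was fitted anew, 41 and 18 with fluid replicate 4 only, 38 and 17 with the beta-actin ratio, and 35 and 21 for a rise of at least 1. The lower count was 24 with the rounds of amplification and 26 for the list of day 12. The interaction called 1 gene with all 49 arrays, without the dimmest genes, with the mean of all probe sets, without an intensity trend, with fluid replicate 4 only and without the 4 ankle arrays with liver transcripts, and 0 with fluid replicates 2 and 3 only. Leaving out 1 array at a time gave 647 to 943 higher genes, 476 to 833 lower genes, 56 to 75 and 29 to 49 transcripts raised in ankle, and 1 to 3 genes in the interaction. The counts of 943 and 833 both came without fluid replicate 4, the fluid array described with 2 rounds like ankle. Leaving out any other array gave at most 765 higher and 572 lower genes. The cause was not tested. With the replicate block, 889 genes were higher and 610 lower, and of the transcripts raised in ankle 70 and 48. The block ended the calls of Mcm2 and Nfatc1, made one of Il1r1, and changed no other call of a named gene. Of 120 named genes past the threshold, 103 passed in each alternative run that held them, with fluid replicate 4 only left aside. The run without the dimmest genes held 127 of the 140 named genes, so it did not test the others. H2-Ab1 changed sign with fluid replicate 4 only (-0.1149, adjusted p = 0.941), and Mbp with all its probe sets averaged (-1.1643, adjusted p = 5.74e-04). The 4 arrays a group and the 4655 genes with no mean above the negative controls limit what could be seen.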
